A study of Mus musculus with 44 samples.

Results

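The mRNA levels and m6A signal of 9 genes of bone formation were followed through sorted skeletal stem and progenitor populations of the newborn mouse. The genes were chosen by name, for their known place in the osteoblast programme, with earlier results of these data known. They are 9 of the 46831 genes in the count table: the transcription factors Runx2 and Sp7, the osteocalcin genes Bglap and Bglap2, the acidic bone phosphoproteins Spp1, Ibsp and Dmp1, the ectoenzyme Alpl and the membrane peptidase Phex. All 9 passed the filter on low counts across the WT populations.

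SLIM-seq compares RNA pulled down with an m6A antibody (IP) with the same kind of RNA before the pull-down (input). It was applied to cells sorted from the lower limbs of C57BL/6J mice, without treatment, at postnatal day 3. The 8 WT populations were skeletal stem cells (SSC), pre-BCSP (pBCSP) and the bone, cartilage and stromal progenitors (BCSP), here called stem and progenitor populations, and the downstream populations PCP, THY, BLSP, 6C3 and HEC. The libraries labelled Mettl3cko (SSC, pBCSP and BCSP) came from Mettl3fl/fl;Col2a1-Cre animals, in which Cre is driven by Col2a1. In that comparison the study calls Mettl3fl/fl animals without Cre WT, and whether the WT libraries of all 8 populations came from such animals is not given in the sources used here. Each condition had 2 IP and 2 input libraries from independent experiments, which makes 44 libraries.

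Runx2 commits mesenchymal cells to the osteoblast lineage, and Sp7 (osterix) acts after it. Mature osteoblasts then secrete osteocalcin, osteopontin (Spp1) and bone sialoprotein (Ibsp), while tissue-nonspecific alkaline phosphatase (Alpl) on their surface removes the mineralization inhibitor pyrophosphate. Dmp1 and Phex are best known from osteocytes, where they restrain the phosphate hormone Fgf23. Several of these genes, among them Runx2, Alpl, Ibsp and Spp1, are also expressed by hypertrophic chondrocytes of the growth plate. m6A is written on mRNA by a complex whose catalytic subunit is Mettl3, mostly within a short motif, which in its most typical form reads GGACT in DNA letters.

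The genes lie in few places of the genome (GRCm38, GENCODE vM21). Dmp1 (chromosome 5, 104202613 to 104214102), Ibsp (104299171 to 104311469) and Spp1 (104435118 to 104441050) share the plus strand of a 270339 bp stretch of chromosome 5 that also holds Dspp and Mepe. Bglap (chromosome 3, 88383501 to 88384464), Bglap2 (88377736 to 88378699) and Bglap3 (88368616 to 88372743) are neighbours on the minus strand of chromosome 3. The longest transcripts of Bglap and Bglap2 were identical at 99.1% of aligned bases and shared 74.7% of the 50-base words of Bglap, so reads can be split between these genes in ways the counts do not show. Runx2 overlaps exons of Runx2os1 on the other strand and Spp1 those of Gm42793, and the strand setting of the counting is not given in the sources used here.

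The GGACT sites of the osteocalcin genes and of Dmp1 are shown first, because these genes had the highest and the lowest IP to input ratios among the 9. Each window has 25 bases of the transcript, 5′ to 3′, with GGACT in capitals. Those of Bglap (chr3:88383576-88383580) and Bglap2 (chr3:88377811-88377815) lie in the 3′ UTR part of exon 4, on the minus strand, and have the same letters, whereas those of Dmp1 (chr5:104211718-104211722 and chr5:104211861-104211865, plus strand) lie in the coding part of exon 6.
Bglap 3′ UTR site: ctgctctccgGGACTtgatcctccc
Bglap2 3′ UTR site: ctgctctccgGGACTtgatcctccc
Dmp1 first site: accggctggtGGACTctctaagagt
Dmp1 second site: acagtgatgaGGACTccacagacac

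In the longest transcript, GGACT occurred 1 time in Bglap and in Bglap2, 2 times in Ibsp, Alpl and Dmp1, 3 times in Sp7, Spp1 and Phex, and 7 times in Runx2. Per kilobase of transcript this gave 2.27 in Bglap, 2.12 in Bglap2, 1.99 in Spp1, 1.08 in Runx2, 0.969 in Sp7, 0.967 in Ibsp, 0.793 in Alpl, 0.724 in Dmp1 and 0.479 in Phex, beside a median of 1.01 over 21877 protein-coding genes. At least 1 GGACT was found in 87.6% of those genes, so holding the motif sets no gene apart. A match of letters is not a measured m6A site, since the counts are per gene and hold no position.

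Promoters of Bglap and Spp1 are shown because the level of one ranged most widely and the other was the most abundant of the 9 mRNAs. Both were read from RefSeq (GRCm38.p6) and end at the base before the annotated start, with TATAAA and AACCACA, a core letter string of Runx binding sites, in capitals. The stretch of Bglap is chr3:88384467-88384616 on the minus strand and that of Spp1 chr5:104434861-104435110 on the plus strand.
Bglap promoter: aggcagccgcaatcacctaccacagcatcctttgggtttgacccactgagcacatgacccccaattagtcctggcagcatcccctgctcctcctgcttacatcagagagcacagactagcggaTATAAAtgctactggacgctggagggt
Spp1 promoter: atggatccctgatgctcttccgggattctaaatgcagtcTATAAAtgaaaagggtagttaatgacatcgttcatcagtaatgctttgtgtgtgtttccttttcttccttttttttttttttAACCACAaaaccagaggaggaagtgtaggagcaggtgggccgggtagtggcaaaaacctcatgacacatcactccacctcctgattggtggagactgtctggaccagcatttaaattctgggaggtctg

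Both strands of the 250 bases before each RefSeq start were searched for the exact letters, and no match overlapped another motif. TATAAA was found at −27 in Bglap and at −211 in 1 of 2 Spp1 starts, the one shown, which also held AACCACA at −129. No start of Sp7 or Bglap2 was among the promoters searched. Among the other members, TATAAA was found at −28 in Ibsp and −192 in 1 of 2 Alpl starts, and AACCACA at −165 in 1 of 2 Dmp1 starts and −81 in Runx2. Of 32851 promoters of this length, 12.4% held TATAAA and 4.40% held AACCACA. These matches are letters in a window, and their use was not measured.

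The mRNA of several antigens used for sorting followed the gates. In WT, Thy1 lay between 17.3 and 34.8 CPM (read counts scaled to the library total, after TMM normalization) in PCP, THY and BLSP and at most 0.430 CPM elsewhere, and Enpep, which encodes 6C3, lay between 41.0 and 55.3 CPM in 6C3 and HEC. Cd200 was at 146 and 290 CPM in SSC and at 21.0 and 25.8 CPM in pBCSP, the populations that the CD200 gate separates. The blood cell gene Ptprc had no count in any WT library of SSC, pBCSP or BCSP, and at most 0.828 CPM in downstream ones. Tek, which encodes the Tie2 antigen of the sort, lay between 6.04 and 8.53 CPM in PCP and between 6.14 and 6.61 in THY. It lay between 1.51 and 3.80 CPM in BLSP and at most at 0.981 CPM in the other WT populations. WT input libraries held 19795666 to 44046651 counts and WT IP libraries 16480027 to 35856651, and those labelled Mettl3cko held 30050178 to 35325482 and 22056571 to 33126857. Replicates correlated at 0.971 to 0.990 in WT input, 0.913 to 0.966 in WT IP, 0.950 to 0.969 in Mettl3cko input and only 0.654 to 0.756 in Mettl3cko IP, which limits what the last can show.

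Across the 8 WT populations all 9 genes varied, and the osteocalcin genes and Ibsp did so over the widest range. BCSP, PCP and SSC were high and THY, HEC or pBCSP lowest for most of them. The mean of the highest population stood above that of the lowest by 313-fold for Bglap, 301-fold for Ibsp, 66.2-fold for Bglap2, 20.7-fold for Phex, 20.2-fold for Alpl, 15.8-fold for Dmp1, 10.8-fold for Sp7, 10.7-fold for Spp1 and 6.33-fold for Runx2. Each of the 9 passed the test of any difference among populations (edgeR's quasi-likelihood F test, Benjamini-Hochberg adjusted), with adjusted p from 5.14e-08 for Alpl to 0.000958 for Phex, where 40.1% of the 20060 genes tested did so. These are bulk libraries, so fewer cells of a kind and less RNA per cell cannot be told apart.

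Compared per kilobase of exon, Spp1 had the highest mean level of the 9 in each of the 8 populations. In BCSP the mean level was 2108 CPM per kilobase for Spp1, 1153 for Ibsp, 125 for Alpl, 101 for Bglap, 48.6 for Bglap2, 14.9 for Sp7, 11.2 for Dmp1, 6.47 for Runx2 and 0.780 for Phex. Dmp1 in BCSP was therefore of the order of Sp7, and Phex was the least abundant of the 9 there.

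**Figure D1:**
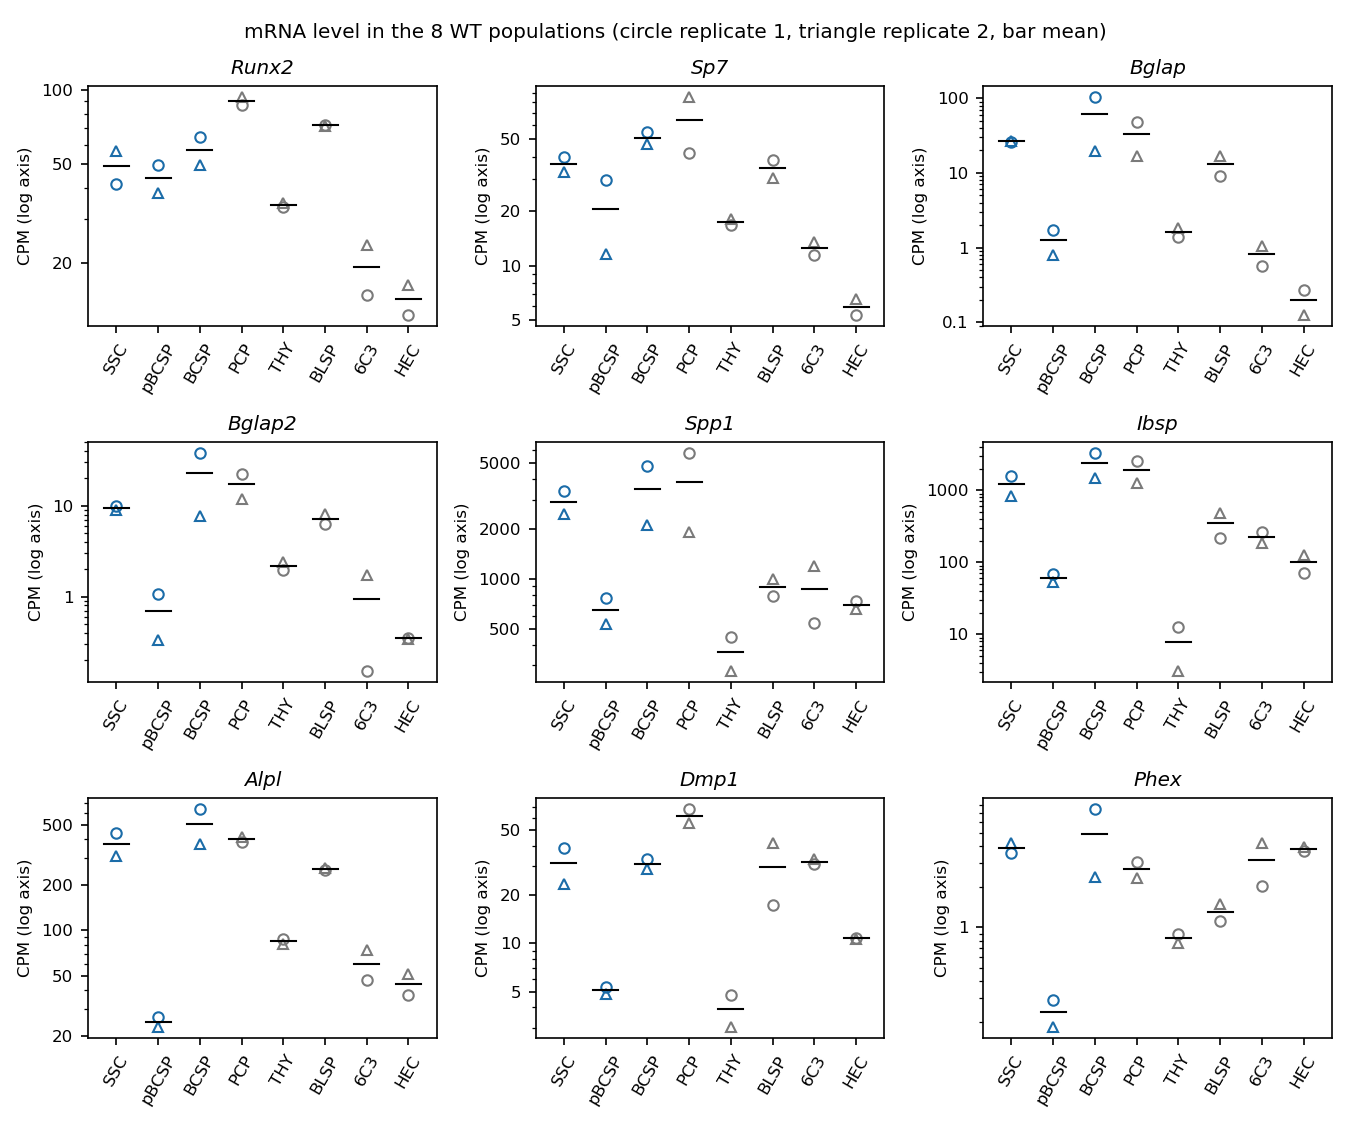
mRNA level of each gene in the WT input libraries, as CPM on a log axis, with populations along the horizontal axis. Circles are replicate 1, triangles replicate 2 and bars the mean of both; stem and progenitor populations are blue and downstream populations grey. SSC and BCSP lie above pBCSP for Bglap, Ibsp and Alpl, while PCP lies beside SSC and BCSP and THY and HEC lie low.

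Of the transcription factors, Runx2 had the narrowest range of the 9 genes, while Sp7 ranged as widely as Spp1. In replicates 1 and 2, Runx2 was at 87.0 and 93.7 CPM in PCP, 72.1 and 71.7 in BLSP, 64.6 and 49.8 in BCSP, 41.6 and 56.4 in SSC, 49.5 and 38.2 in pBCSP, 33.7 and 34.9 in THY, 14.9 and 23.5 in 6C3, and 12.3 and 16.3 in HEC. Sp7 was at 42.1 and 85.5 CPM in PCP, 54.6 and 46.8 in BCSP, 39.9 and 33.1 in SSC, 38.5 and 30.6 in BLSP, 29.6 and 11.6 in pBCSP, 16.7 and 18.2 in THY, 11.4 and 13.5 in 6C3, and 5.31 and 6.53 in HEC. Both were highest in PCP and lowest in HEC, and pBCSP stood in the middle. In this order no population differed from its neighbour for either gene (adjusted p of at least 0.0685 for Runx2 and 0.157 for Sp7), so only distant ranks are separated.

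Osteocalcin, a secreted protein that binds hydroxyapatite and serves as a late osteoblast marker, ranged from 104 CPM down to a few reads per library. In the same order of replicates, Bglap was at 104 and 20.0 CPM in BCSP, 48.8 and 16.9 in PCP, 26.2 and 26.8 in SSC, 9.21 and 17.0 in BLSP, 1.41 and 1.81 in THY, 1.74 and 0.796 in pBCSP, 0.573 and 1.05 in 6C3, and 0.273 and 0.124 in HEC, the last from 7 and 4 reads. Bglap2 was at 38.2 and 7.65 CPM in BCSP, 22.5 and 11.9 in PCP, 9.86 and 8.97 in SSC, 6.30 and 8.11 in BLSP, 1.97 and 2.38 in THY, 1.06 and 0.337 in pBCSP, 0.151 and 1.71 in 6C3, and 0.352 and 0.341 in HEC. BCSP, PCP, SSC and BLSP had the highest means for both genes. The step from BLSP to THY was the one between neighbours in which Bglap differed (log2 difference 3.01 ± 0.68 (SE), adjusted p = 0.0331). Bglap2 did not pass at that step (1.72 ± 0.76, adjusted p = 0.43). The replicates of BCSP differed by a factor of 5.23 for Bglap, so that its first place is not separated from PCP (adjusted p = 0.264). Bglap3, the third gene of the cluster, ranged over 52.9-fold between BCSP and HEC.

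Spp1 and Ibsp, phosphoproteins that bind mineral and cell surface integrins, were highest in the same 3 populations. Spp1 was at 5768 and 1927 CPM in PCP, 4837 and 2110 in BCSP, 3382 and 2464 in SSC, 790 and 999.7 in BLSP, 542 and 1195 in 6C3, 736 and 660 in HEC, 767 and 533 in pBCSP, and 444 and 277 in THY. Ibsp was at 3291 and 1477 CPM in BCSP, 2569 and 1263 in PCP, 1575 and 844 in SSC, 216 and 481 in BLSP, 264 and 184 in 6C3, 72.0 and 127 in HEC, 68.5 and 52.6 in pBCSP, and 12.7 and 3.08 in THY. For both, SSC stood above BLSP, the next in order (log2 difference 1.71 ± 0.48 with adjusted p = 0.0154 for Spp1 and 1.80 ± 0.57 with adjusted p = 0.0299 for Ibsp). Ibsp had a further step from pBCSP to THY of 2.97 ± 0.62 (adjusted p = 0.00217), and in THY Ibsp rested on 272 and 136 reads.

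Alpl followed the same pattern with closer replicates. It was at 635 and 370 CPM in BCSP, 386 and 412 in PCP, 439 and 309 in SSC, 249 and 258 in BLSP, 87.0 and 81.6 in THY, 46.6 and 73.5 in 6C3, 37.2 and 51.5 in HEC, and 26.8 and 22.8 in pBCSP. BLSP stood above THY by 1.59 ± 0.28 on the log2 scale (adjusted p = 0.0067), and HEC above pBCSP by 0.84 ± 0.28 (adjusted p = 0.0472). Unlike Runx2 and Sp7, Alpl was lowest in pBCSP.

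Dmp1 and Phex departed from this order. Dmp1 was at 68.0 and 55.4 CPM in PCP, 30.9 and 33.3 in 6C3, 33.1 and 29.0 in BCSP, 39.2 and 23.3 in SSC, 17.3 and 41.7 in BLSP, 10.8 and 10.6 in HEC, 5.35 and 4.87 in pBCSP, and 4.78 and 3.01 in THY. The stromal 6C3 population, low in Runx2, Sp7 and osteocalcin, thus held as much Dmp1 as BCSP and SSC (log2 difference from BCSP 0.05 ± 0.34, adjusted p = 0.949). Phex was at 7.47 and 2.35 CPM in BCSP, 3.55 and 4.17 in SSC, 3.67 and 3.90 in HEC, 2.02 and 4.22 in 6C3, 3.03 and 2.32 in PCP, 1.11 and 1.49 in BLSP, 0.890 and 0.770 in THY, and 0.290 and 0.184 in pBCSP, from 9 and 6 reads. HEC, which was at or near the bottom for Runx2, Sp7 and both osteocalcin genes, was among the highest for Phex. No neighbours in the order of Phex differed (adjusted p of at least 0.0563).

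Between single populations, pBCSP held less of most of these mRNAs than SSC and BCSP, the populations sorted beside it. Over the 28 pairs of WT populations, 15.1% of all gene tests passed an adjusted p of 0.05, and the members passed in 20 pairs each for Alpl and Ibsp, 17 for Bglap and Dmp1, 16 for Runx2, 14 for Sp7, 13 for Spp1, 12 for Bglap2 and 10 for Phex. SSC against pBCSP called 5 of the 9 genes where 0.748% of genes were called: SSC was higher by 4.39 ± 0.71 for Bglap, 4.32 ± 0.64 for Ibsp, 4.01 ± 0.66 for Phex, 3.91 ± 0.31 for Alpl and 2.61 ± 0.37 for Dmp1 on the log2 scale. Bglap2 (3.75 ± 0.85) and Spp1 (2.17 ± 0.49) fell just short there (adjusted p = 0.0543 for each), and Runx2 (0.16 ± 0.25) showed the smallest difference. Between pBCSP and BCSP 7 of 9 passed, all but Runx2 and Sp7 (adjusted p = 0.453 and 0.0931), beside 1.67% of genes. The log2 difference of pBCSP minus BCSP was −5.62 ± 0.75 for Bglap, −5.30 ± 0.67 for Ibsp, −5.04 ± 0.88 for Bglap2, −4.36 ± 0.67 for Phex, −4.34 ± 0.31 for Alpl, −2.60 ± 0.37 for Dmp1 and −2.42 ± 0.49 for Spp1. SSC against BCSP called none of the 9 (0.444% of genes), although Bglap and Spp1 in these libraries reach from 20.0 to 104 and from 2110 to 4837 CPM, so that the replicate spread is wide.

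Among downstream populations, PCP was high for most members and THY low. BCSP against PCP called 1 of 9, Dmp1, lower in BCSP by 0.99 on the log2 scale (adjusted p = 0.0418), where 29.7% of genes were called. PCP against THY called 7 of 9, all higher in PCP, beside 1.66% of genes, with log2 differences of 7.95 ± 0.76 for Ibsp, 4.33 ± 0.71 for Bglap, 4.0 ± 0.39 for Dmp1, 3.42 ± 0.52 for Spp1, 2.24 ± 0.29 for Alpl, 1.87 ± 0.38 for Sp7 and 1.40 ± 0.25 for Runx2. Bglap2 (adjusted p = 0.0829) and Phex (adjusted p = 0.244) did not pass there.

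Stem and progenitor populations as a group had more mRNA of 7 of the 9 genes than the downstream populations, and less of none. Bglap was higher by 2.31 ± 0.35 (SE) on the log2 scale (adjusted p = 4.46e-05), Ibsp by 1.78 ± 0.28 (7.58e-05), Bglap2 by 1.12 ± 0.40 (0.0293), Spp1 by 0.99 ± 0.24 (0.00247), Sp7 by 0.78 ± 0.19 (0.00228), Alpl by 0.51 ± 0.14 (0.00671) and Runx2 by 0.46 ± 0.13 (0.00621). Dmp1 differed by −0.15 ± 0.18 (adjusted p = 0.533) and Phex by −0.29 ± 0.30 (adjusted p = 0.456). The test was edgeR's over all WT input libraries, and 23.1% of 20060 genes were higher and 28.3% lower in it. The median of the 9 was 0.78 and that of all genes −0.11. The 2 groups of populations overlapped for every member, since pBCSP was low and PCP high, so the contrast averages over unlike populations. Bglap2 lost its call with DESeq2 (adjusted p = 0.053) and without input replicate 1 of BCSP (0.59) or of pBCSP (0.77).

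**Figure D2:**
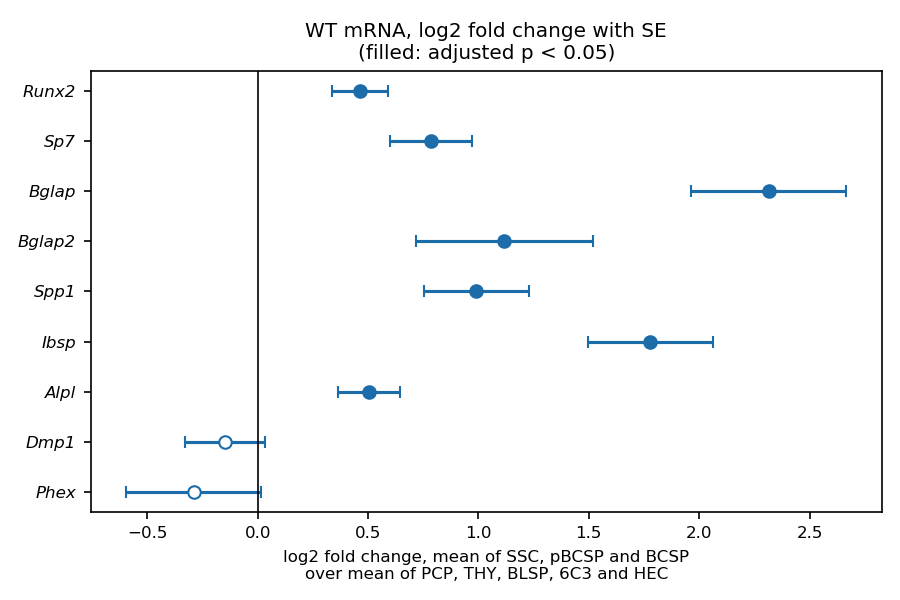
log2 fold change of mRNA between the mean of SSC, pBCSP and BCSP and the mean of PCP, THY, BLSP, 6C3 and HEC in WT, for each gene, with its standard error. Filled points passed an adjusted p of 0.05. Bglap and Ibsp lie farthest to the right at 2.31 and 1.78, and Dmp1 and Phex lie at or left of 0.

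Other regulators of osteoblasts did not move as a block. Of 15 further transcription factors, 4 were higher in stem and progenitor populations, with Atf4 at 1.66 ± 0.11 and Dlx5, a homeodomain activator of Runx2 and Sp7, at 1.06 ± 0.15. Another 6 were lower, with Dlx6 at −1.73 ± 0.49. The median of the list was −0.40.

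Of 19 genes of bone matrix and mineral handling, 11 were higher and 5 lower in stem and progenitor populations, with a median of 0.77. Mepe, a phosphoprotein gene that lies between Ibsp and Spp1, was higher by 5.87 ± 0.95 and had no count in any library of THY, 6C3 or HEC, and Omd, a keratan sulfate proteoglycan, was higher by 2.61 ± 0.15. Col1a1, the main chain of bone collagen, was lower by −3.66 ± 0.12 and Cdh11, the osteoblast cadherin, by −2.25 ± 0.13. Type I collagen thus went the opposite way from osteocalcin and Ibsp in the same libraries. Of 6 osteocyte genes 2 were higher and 4 lower, with a median of −0.77.

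Markers of hypertrophic chondrocytes moved with the members in part. Their summed level (Col10a1, Ihh, Mmp13, Runx3 and Panx3, in CPM per kilobase) was 161 to 209 in SSC, 36.3 to 67.4 in pBCSP, 423 to 606 in BCSP, 312 to 1917 in PCP, 107 to 256 in BLSP, 44.9 to 81.4 in 6C3, 26.7 to 29.4 in THY and 12.9 to 15.1 in HEC. In PCP and BLSP the sum came mostly from Mmp13, a collagenase, with means of 2922 and 464 CPM against 12.2 in pBCSP. Col10a1, which defines the hypertrophic state, was at 722 and 1015 CPM in BCSP, 142 and 169 in SSC and at most 2.67 in pBCSP, but had means of only 11.3 CPM in PCP and 1.38 in BLSP. Ihh (36.4 against 2.04 CPM), Runx3 (64.5 against 24.1) and Panx3 (75.5 against 42.2) had higher means in pBCSP, where most members were low, than in PCP, where they were high. The Panx3 libraries of pBCSP (39.0 to 112) and PCP (27.9 to 56.5) overlapped. Ihh and Panx3 also had higher means in BCSP (180.5 and 430 CPM) and SSC (59.95 and 178) than in pBCSP. Runx3 was higher than in pBCSP in BCSP (78.4) but not in SSC (43.8). In the stem and progenitor contrast 4 of these 5 genes were higher and Mmp13 was lower, and their part in the result was not tested.

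Other cell type lists went both ways in the same contrast. All 10 chondrocyte genes in the table were higher, and of the 7 sort antigens 1 was higher and 4 lower. Of 6 stromal genes 1 was higher and 5 lower. Of 7 osteoclast genes tested 1 was higher and 4 lower, and of 5 macrophage and blood genes tested 1 was higher and 1 lower. All 6 erythroid genes were lower, as were 2 of 5 muscle genes, and none of 5 endothelial genes passed. The erythroid list summed to 0.746 to 7.24 CPM per kilobase in stem and progenitor libraries and to 22.4 to 192 in downstream ones, and the part of these cells in the members' differences was not tested.

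Over the 16 WT input libraries most members rose and fell together, given here as a description, since libraries of 1 population share their cells. Pearson's r of log2 CPM was 0.957 between Bglap and Bglap2, 0.934 between Bglap2 and Alpl, 0.916 between Bglap and Alpl, 0.909 between Runx2 and Sp7 and 0.904 between Sp7 and Bglap. Spp1 and Ibsp reached 0.913 and Ibsp and Dmp1 0.900, whereas Runx2 and Dmp1 reached 0.375. The values between these were continuous, with 0.810 between Bglap and Spp1, 0.780 between Spp1 and Alpl and 0.700 between Runx2 and Alpl. Phex ranged from −0.093 with Runx2, the lowest value of all, to 0.673 with Dmp1. The Bglap and Bglap2 value is also touched by shared sequence.

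**Figure D3:**
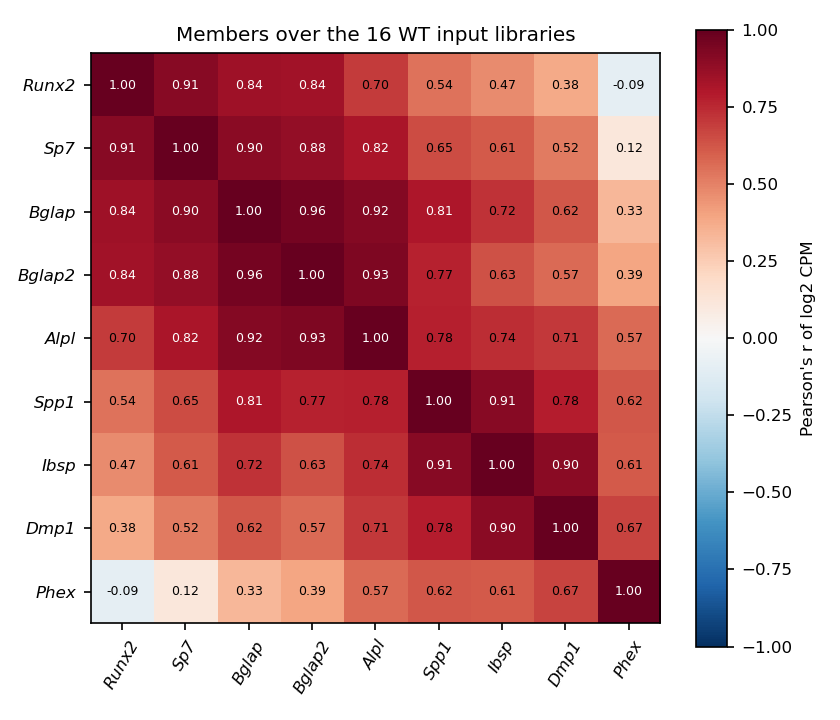
Pearson's r of log2 CPM between the 9 genes over the 16 WT input libraries, printed in each cell and coloured from blue (−1) to red (1). The highest value, 0.96, is that of Bglap and Bglap2, and Bglap and Spp1 reach 0.81 and Runx2 and Alpl 0.70. Phex ranges from −0.09 with Runx2, the lowest value, to 0.67 with Dmp1.

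Among 8872 genes with a mean log2 CPM of at least 3, those most like each member over these libraries were often other members. Bglap, Bglap2 and Phex lay below that level and were not candidates, so the r of 0.957 between Bglap and Bglap2 is left out here. Runx2 was the gene nearest to Sp7 (r = 0.909), Alpl to Bglap2 (0.934), and Ibsp to both Spp1 (0.913) and Dmp1 (0.900). Beyond the members, Tspan7 was nearest to Runx2 (r = 0.931), Siva1 to Bglap (0.931), Cd200 to Ibsp (0.914), Sort1 to Alpl (0.880) and Ssu72 to Phex (0.845). Cd200 encodes one of the sort antigens.

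In the IP libraries of WT cells the osteocalcin transcripts were enriched and those of Dmp1, Sp7 and Alpl depleted, relative to the other genes measured. Following the methods of the study, m6A-tagged means that IP exceeded input by more than 1 on the log2 scale with an unadjusted p under 0.05. Of 70 tests of a member in a population, 13 were m6A-tagged, 6 of 7 for Bglap, 5 of 8 for Bglap2 and 2 of 7 for Phex. The share of all genes that were m6A-tagged was 6.67% in BCSP, 10.4% in SSC, 10.6% in PCP, 12% in pBCSP, 12.4% each in THY and BLSP, 13.5% in HEC and 14.5% in 6C3. With an adjusted p in place of the unadjusted one, 8 of the 13 remained. With the replicate block, which pairs IP and input cells sorted together, 15 pairs were m6A-tagged. TMM scaling sets the bulk of genes near 0 and no spike-in is described, so the ratios are relative within a library pair.

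Bglap stood above input in all 16 pairs of WT libraries. The log2 ratios of replicates 1 and 2 were 3.28 and 2.60 in 6C3, 3.12 and 1.64 in THY, 2.203 and 1.99 in PCP, 2.03 and 2.26 in pBCSP, 1.91 and 2.05 in BLSP, 1.73 and 1.70 in BCSP, 1.86 and 1.16 in SSC, and 0.18 and 2.94 in HEC. The fitted log2 fold change was 3.04 ± 0.59 in 6C3 (adjusted p = 0.00977), 2.61 ± 0.57 in THY (0.0163), 2.08 ± 0.42 in BLSP (0.014) and 1.58 ± 0.31 in SSC (0.0422). In PCP it was 2.19 and in pBCSP 2.17, both m6A-tagged at unadjusted p only (adjusted p = 0.0929 and 0.1), and in BCSP 1.67 with an unadjusted p of 0.127. With the replicate block Bglap was m6A-tagged in BCSP too (1.67, unadjusted p = 8.15e-05). Left out 1 at a time, IP replicate 1 ended the call in PCP (1.05) and in pBCSP (1.65), as did each pBCSP input replicate (2.83 and 1.69). Bglap was not tested in HEC, where its 2 IP libraries held 7 and 38 reads.

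Bglap2, which shares most of its sequence with Bglap, was above input in the same 16 pairs, from 0.32 to 4.11. It was m6A-tagged in SSC, PCP, THY, BLSP and 6C3 with log2 fold changes of 1.67 to 2.40, and not in HEC (1.10, unadjusted p = 0.35) or, without the block, in BCSP (1.90, unadjusted p = 0.108; with it 1.75, unadjusted p = 0.000425). Its call was lost in SSC without input replicate 2 (1.57) and in 6C3 without input replicate 1 (1.40) or IP replicate 2 (2.04). Phex was m6A-tagged in BCSP (1.79 ± 0.69) and HEC (1.46 ± 0.48) and varied widely between replicates elsewhere, as in THY, where 35 and 0 reads were found in IP beside 19 and 34 in input. Without input replicate 2 in BCSP (1.17) or IP replicate 1 in HEC (0.53) Phex was not m6A-tagged there.

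Dmp1 lay on the other side, below input in all 16 WT pairs. It was at 48 and 58 IP reads against 1023 and 1208 input reads in 6C3, and at 259 and 220 against 3232 and 2551 in PCP. The log2 ratio was lowest in BCSP replicate 2, at −6.93 with 5 IP reads beside 901 input reads, and highest in HEC, at −1.28 and −1.29. The fitted log2 fold change was below −1 with an unadjusted p under 0.05 in 7 of 8 populations, from −3.47 ± 0.39 in 6C3 to −1.20 ± 0.33 in HEC, and in BCSP it was −2.58 with an unadjusted p = 0.105 (−4.04 with the replicate block, unadjusted p = 0.0238). The call was lost in pBCSP with the block (unadjusted p = 0.0584) or without either input replicate (−1.66 and −1.81), in THY likewise (−1.68 and −2.39), and in SSC without input replicate 1 (−1.54).

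Sp7 was below input in 7 of 8 populations by the same rule (median −1.49, ratios −2.79 to −0.82 over 16 pairs) and Alpl in 5 of 8 (median −1.13, ratios −1.62 to −0.49). Sp7 reached it in pBCSP as well with the block (−1.25, unadjusted p = 0.0133), and lost it when single libraries were left out in SSC (−1.35 to −0.78), BCSP (−1.25 and −0.75) and HEC (−1.37 and −1.07). Alpl lost it in HEC without IP or input replicate 2 (−0.93 and −0.82). The share of all genes below input by this rule was 11.7% in BCSP, 13.9% in SSC, 14.2% in HEC, 14.5% in PCP, 14.8% each in pBCSP and BLSP, 15.0% in THY and 17.0% in 6C3. Runx2 (median 0.49), Spp1 (−0.33) and Ibsp (−0.55) were called in neither direction in any population, although Runx2 was above 0 in 15 of 16 pairs and Ibsp in none. At an adjusted p of 0.05 and a smaller size, Spp1 was below input in BLSP (−0.81, adjusted p = 0.00989) and HEC (−0.57, adjusted p = 0.0265). Runx2, with the most GGACT sites of the 9, was thus not among those m6A-tagged.

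In a fit that did not pair IP with input libraries, the ratio of no member differed among the 8 WT populations at an adjusted p of 0.05. That test called 0.485% of 25365 genes. The lowest was Alpl (unadjusted p = 0.0825, adjusted p = 0.739), and none had an unadjusted p under 0.05. With the replicate block, in a fit that called 923 of 25365 genes, 1 member passed, Spp1 (adjusted p = 0.00372), and Alpl (unadjusted p = 0.00289) and Dmp1 (unadjusted p = 0.0202) came nearest. Without the block, leaving out IP replicate 1 of BCSP let 1 pass, Dmp1 (adjusted p = 0.00121).

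**Figure D4:**
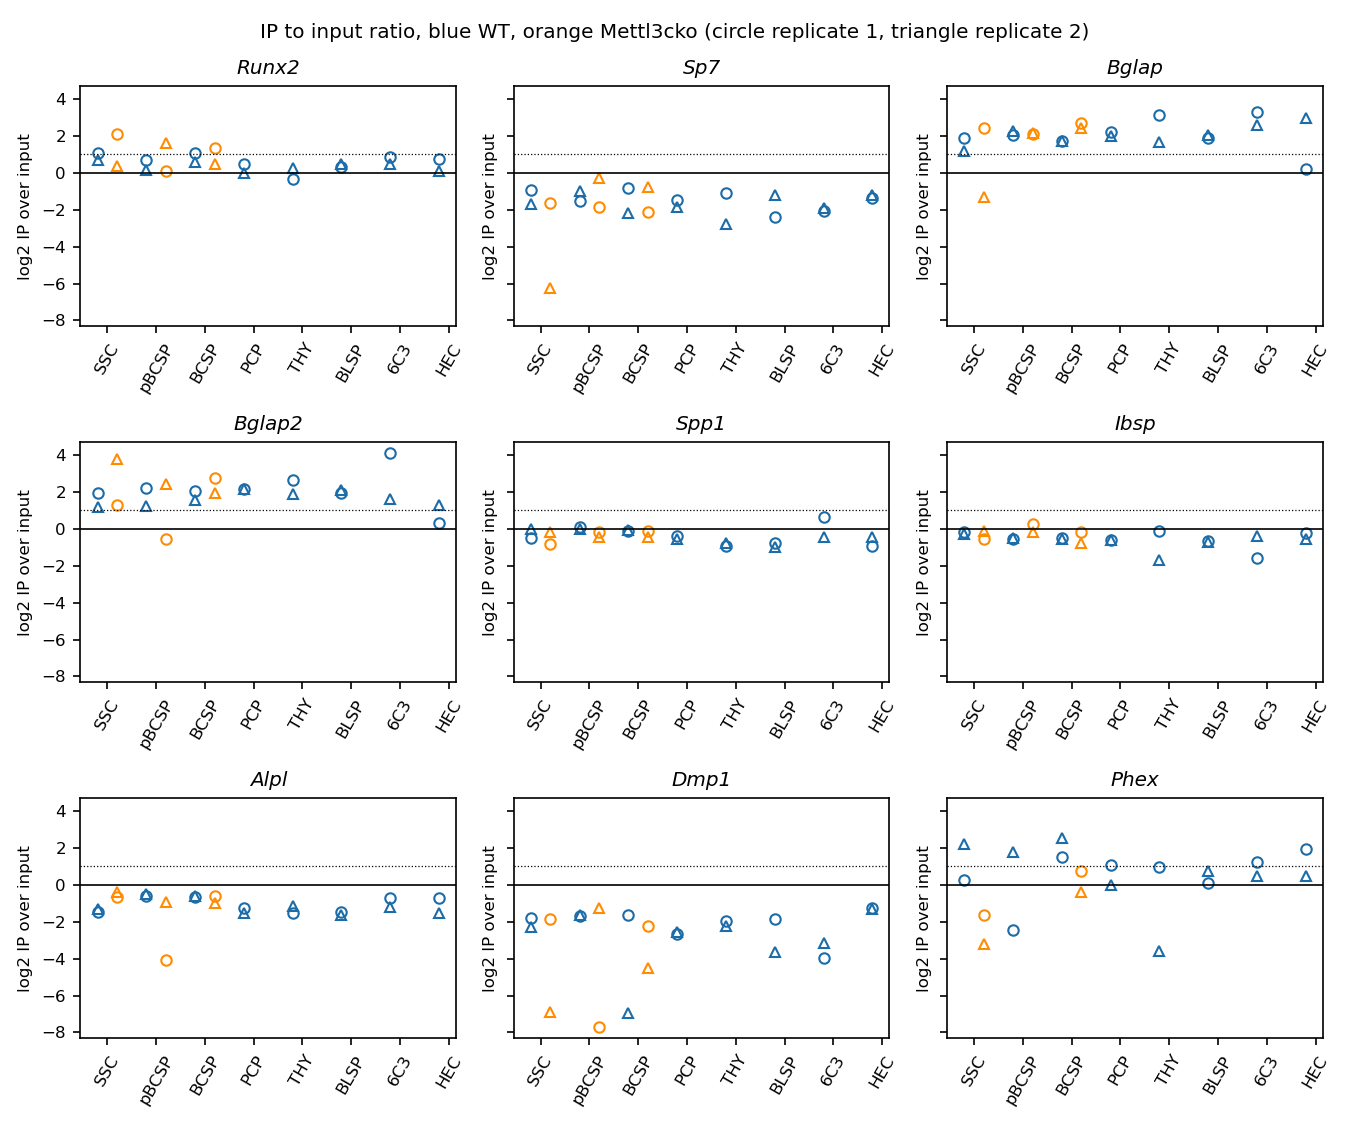
log2 ratio of IP over input for each gene and library pair, by population along the horizontal axis, WT in blue and libraries labelled Mettl3cko in orange, replicate 1 as circles and replicate 2 as triangles. The solid line marks 0 and the dotted line 1, and pairs without any read are left out. WT Bglap and Bglap2 lie above 0 throughout, WT Dmp1, Sp7 and Alpl below, and the orange points spread more widely than the blue.

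The comparison of libraries labelled Mettl3cko with WT asks how these mRNAs stand when the m6A writer is deleted in Col2a1-expressing cells. Mettl3 mRNA itself did not pass the test of a difference. It was at 15.1 and 15.6 CPM in WT SSC against 16.6 and 18.8 in SSC labelled Mettl3cko, 11.9 and 16.1 against 22.2 and 22.8 in pBCSP, and 18.1 and 19.9 against 16.4 and 17.8 in BCSP, so that the libraries labelled Mettl3cko lay above WT in SSC and pBCSP and below it in BCSP. Over the 3 populations the log2 fold change was 0.25 ± 0.17 (adjusted p = 0.449). The count covers the whole gene, and also shares exon sequence with Tox4 on the other strand, so it need not show the loss of a floxed part. Their genotype rests on titles, library names and column names, because the field for genotype says wild type.

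Osteocalcin mRNA was lower in the SSC libraries labelled Mettl3cko. Bglap was at 26.2 and 26.8 CPM in WT SSC and at 6.98 and 2.31 CPM in Mettl3cko, without overlap, a log2 fold change of −2.53 ± 0.50 (unadjusted p = 0.00135, adjusted p = 0.161). Bglap2 was at 9.86 and 8.97 against 3.64 and 0.569 CPM (−2.18 ± 0.78, unadjusted p = 0.0256), and Ibsp at 1575 and 844 against 791 and 623 CPM (−0.79 ± 0.30, unadjusted p = 0.0341). By the criterion of the study, a log2 fold change beyond 0.5 at an unadjusted p under 0.05, these 3 were lower and no member was higher, beside 7.07% of 16100 genes lower and 6.96% higher. At an adjusted p of 0.05 the edgeR fit reported, with the filter on low counts, called no gene in any of the 3 populations. It had 2363 genes at an unadjusted p under 0.05 in SSC, 1341 in pBCSP and 2123 in BCSP. That count of 0 depended on the settings. Without the filter edgeR called 793, 245 and 540 genes at an adjusted p of 0.05, and with the replicate block 288, 0 and 46. DESeq2, also fitted without that filter, called 701, 170 and 544 genes at an adjusted p of 0.05, with Bglap in SSC among them (adjusted p = 2.3e-05). Bglap2 was not called without WT replicate 1 (−2.08) or 2 (−2.25), nor Ibsp without WT replicate 1 (−0.25) or Mettl3cko replicate 2 (−0.63).

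The other 6 members did not pass in SSC. Dmp1 was at 39.2 and 23.3 CPM in WT and 116 and 26.9 CPM in Mettl3cko (1.18 ± 0.61, unadjusted p = 0.09), a mean raised by 1 library, and without Mettl3cko replicate 2 it was higher (1.89, adjusted p = 0.00947). The log2 fold change was −0.65 ± 0.89 for Phex, −0.46 ± 0.24 for Alpl, 0.39 ± 0.38 for Sp7, 0.29 ± 0.23 for Runx2 and 0.12 ± 0.21 for Spp1. The interval of Runx2 ran from −0.25 to 0.82. By the same criterion 3 of 5 stromal genes tested were lower and 1 higher (median −1.15), 4 of 5 erythroid genes were higher (median 3.08) and 1 of 6 osteoclast genes was lower, and their part in the members' differences was not tested.

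In BCSP, Bglap was again lower and Dmp1 higher. Bglap was at 104 and 20.0 CPM in WT and 24.3 and 5.96 CPM in Mettl3cko, which overlap (−2.04 ± 0.83, unadjusted p = 0.0405, adjusted p = 0.362), and Bglap2 at 38.2 and 7.65 against 9.96 and 2.58 CPM (−1.87 ± 0.83, unadjusted p = 0.0556). Dmp1 was at 33.1 and 29.0 against 112 and 45.0 CPM, without overlap (1.34 ± 0.41, unadjusted p = 0.0119, adjusted p = 0.273). The Bglap call was lost with DESeq2 (−2.03, unadjusted p = 0.123), with the counts of Bglap, Bglap2 and Bglap3 summed (−1.83, unadjusted p = 0.0503) and without WT replicate 1 (−0.40). The Dmp1 call was lost without WT replicate 2 (1.24) or Mettl3cko replicate 1 (0.52), and Bglap2 was called without WT replicate 2 (−2.61) or Mettl3cko replicate 1 (−3.16). The background was 5.72% of 16322 genes lower and 7.22% higher, and 3 of 5 erythroid, 2 of 3 muscle and 1 of 4 macrophage and blood genes tested were higher. Ibsp was at 3291 and 1477 against 1497 and 1602 CPM (−0.62 ± 0.35) and Spp1 at 4837 and 2110 against 3252 and 3696 CPM (−0.0026 ± 0.36), while Runx2 (−0.27 ± 0.25), Sp7 (−0.18 ± 0.23), Alpl (−0.15 ± 0.30) and Phex (−0.10 ± 0.73) did not pass.

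In pBCSP, where the osteocalcin genes were already near 1 CPM, Spp1 was the one member called. It was at 767 and 533 CPM in WT and 1434 and 932 CPM in Mettl3cko, without overlap (0.87 ± 0.31, unadjusted p = 0.0304, adjusted p = 0.569), but not called without Mettl3cko replicate 1 (0.52) or WT replicate 2 (0.62), and 3.88% of 16017 genes were higher and 4.48% lower, with 2 of 4 erythroid and 2 of 5 stromal genes tested among the higher. Bglap was at 1.74 and 0.796 against 1.61 and 0.955 CPM and Ibsp at 68.5 and 52.6 against 40.5 and 64.3 CPM, both overlapping. Dmp1 was at 5.35 and 4.87 against 14.1 and 0.277 CPM, so that its Mettl3cko replicates lay on both sides of WT. Runx2 was at 49.5 and 38.2 against 37.8 and 31.9 CPM, without overlap (−0.33 ± 0.26, unadjusted p = 0.255). Sp7 (0.49 ± 0.50), Bglap2 (0.34 ± 1.56) and Alpl (−0.20 ± 0.40) did not pass either. Phex had no read in either Mettl3cko library and was not tested. Its WT mean of 0.237 CPM, from 9 and 6 reads, was 2.63-fold above a floor of 3 reads per Mettl3cko library. The spread of the WT reads is not covered by that floor.

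**Figure D5:**
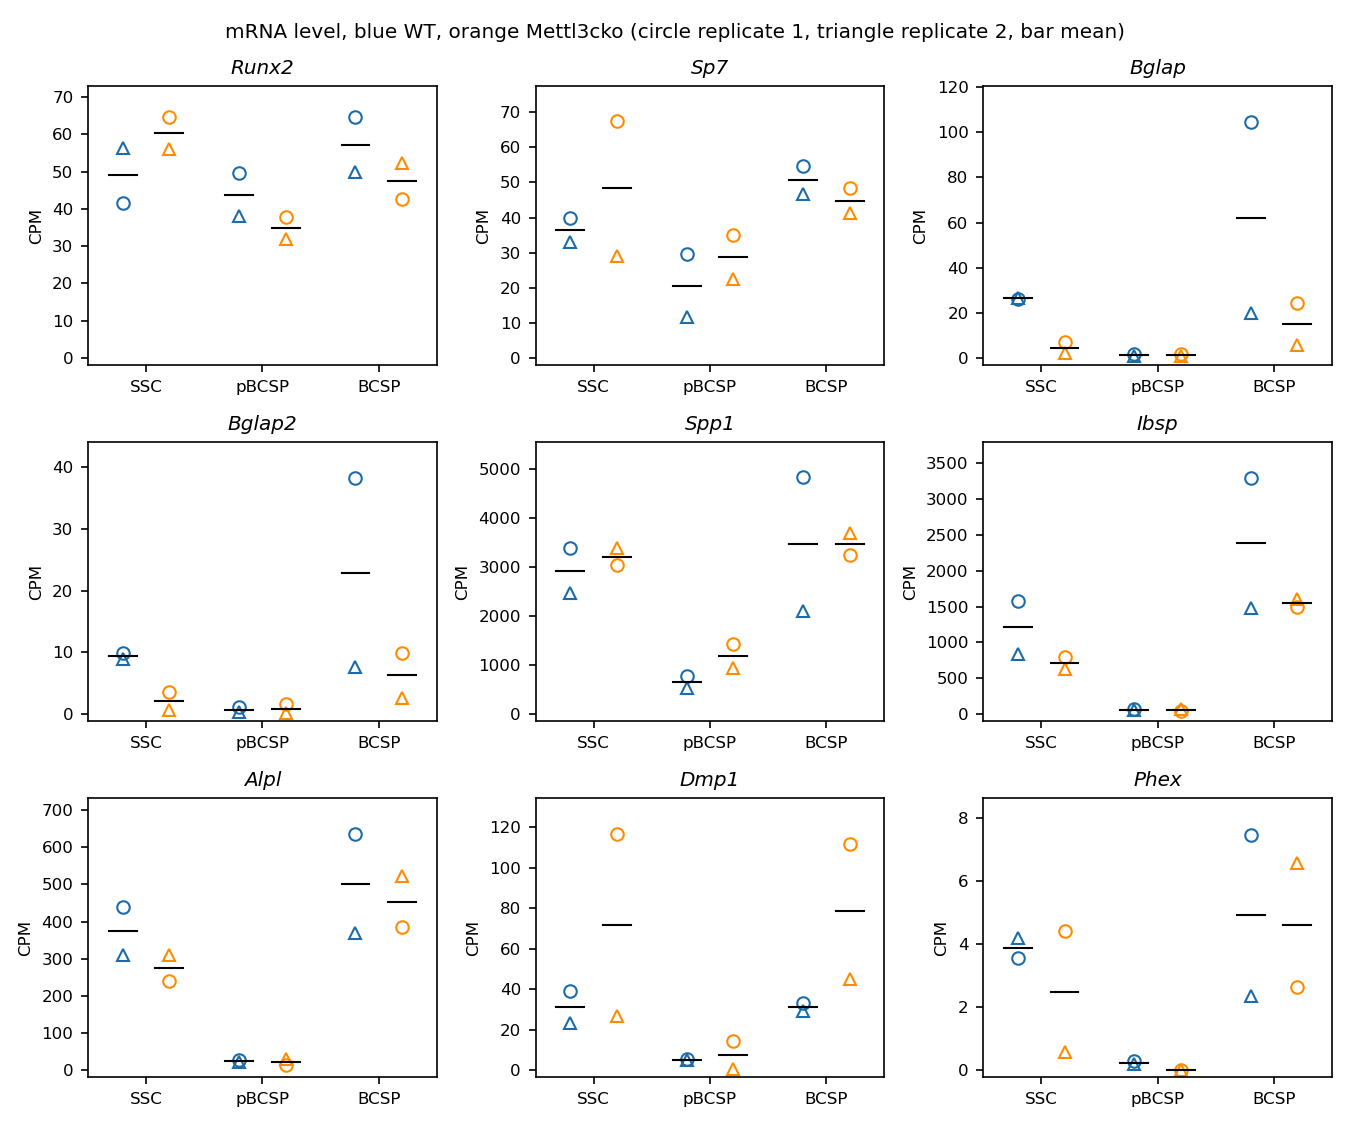
mRNA level of each gene in CPM (linear axis from 0) in SSC, pBCSP and BCSP, WT input libraries in blue and those labelled Mettl3cko in orange, replicate 1 as circles, replicate 2 as triangles and bars for the mean of both. Bglap and Bglap2 lie lower in the Mettl3cko libraries of SSC, and 1 of 2 Mettl3cko libraries carries most of the higher Dmp1 mean in SSC and BCSP.

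Fitted over SSC, pBCSP and BCSP together, no member passed an adjusted p of 0.05, with 2.64% of 18655 genes lower and 3.83% higher. Bglap came nearest at −1.64 ± 0.54 (adjusted p = 0.0894), followed by Ibsp at −0.54 ± 0.21 (0.157), Bglap2 at −1.34 ± 0.70 (0.297) and Dmp1 at 1.03 ± 0.55 (0.31). Without the filter on low counts all 4 passed in these directions (adjusted p of 2.65e-09 for Bglap to 0.003 for Bglap2). Leaving out Mettl3cko replicate 1 of pBCSP called Bglap (−1.90, adjusted p = 0.0343) and Bglap2 (−2.11, adjusted p = 0.0336), WT replicate 2 of pBCSP called Bglap (−1.91, adjusted p = 0.044), and Mettl3cko replicate 2 of pBCSP called Dmp1 (1.32, adjusted p = 0.0228). Spp1 was at 0.33 ± 0.21, Alpl at −0.27 ± 0.19, Sp7 at 0.24 ± 0.25 and Runx2 at −0.10 ± 0.16, none with an unadjusted p under 0.05. A test of unlike changes in the 3 populations called no gene at an adjusted p of 0.05 and 839 at an unadjusted one; among members Phex had an unadjusted p = 0.0455 and Bglap an unadjusted p = 0.117. These comparisons each use the same WT libraries as those between WT populations.

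Among related genes, 2 of 15 transcription factors were higher in this fit (Msx1, 0.59 ± 0.15, and Fosl1, 0.56 ± 0.11) and 1 lower (Nfatc2, −1.05 ± 0.16). Of 19 genes of bone matrix and mineral handling, the matrix kinase gene Fam20c was higher (0.65 ± 0.12), while the calcification inhibitor gene Mgp (−1.06 ± 0.18) and Sparc (−0.59 ± 0.10) were lower. Pdpn of 4 osteocyte genes tested (0.56 ± 0.12) and Ihh of 5 hypertrophic chondrocyte genes (1.05 ± 0.22) were higher. Of 5 erythroid genes tested 3 were higher, and 1 of 7 osteoclast genes tested was lower. The whole list of 6 erythroid genes summed to 0.746 to 7.24 CPM per kilobase in WT and 11.4 to 66.3 in Mettl3cko libraries. No chondrocyte, stromal, macrophage and blood, endothelial, muscle or sort antigen gene passed. What these markers contribute to the members' values was not tested.

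The IP to input ratio of no member passed the test of a difference between genotypes over the 3 populations, where 3.94% of 20360 genes did. For Phex this test could give no answer (SE 3541.8), because its pBCSP libraries labelled Mettl3cko held no read in IP or input. Bglap differed by 0.47 ± 0.95 (adjusted p = 1), with log2 ratios of 2.70 and 2.44 in BCSP, 2.13 and 2.14 in pBCSP and 2.41 and −1.30 in SSC labelled Mettl3cko. The last pair had 23 IP reads beside 73 input reads. Dmp1 differed by −2.02 ± 1.47 (unadjusted p = 0.186), with 0 to 716 IP reads in these libraries. Without Mettl3cko IP replicate 1 of SSC 2 members passed, Dmp1 among them (−4.24, adjusted p = 0.0486), and without Mettl3cko IP replicate 2 of pBCSP 1 did. The interval for Bglap ran from −1.53 to 2.48, and 5 of its 6 pairs labelled Mettl3cko stood above input. The median difference over all 20360 genes was −0.39 on the log2 scale, so this contrast was not centred on 0. TMM scaling sets each library by the bulk of its genes, so a loss of m6A shared by most transcripts can be scaled away in part or in whole. These ratios therefore cannot show whether m6A on Bglap was kept or lost.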

How the data were processed

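SLIM-seq input and IP libraries of 8 WT populations and of 3 populations labelled Mettl3cko were analysed. According to the processing notes of the submitters and the methods of the study, the authors trimmed reads with fastp 0.20.1, aligned them to GRCm38 (mm10) with HISAT2 2.2.1 and counted reads per gene with featureCounts 2.0.1, which gave the deposited counts, raw whole numbers. The gene annotation and the strand setting are not given in the sources used here. Of 46959 entries, 128 named 1-Mar or 2-Mar (at most 0.39% of a library) were left out, since a spreadsheet had replaced the gene names, and 44687 of the other genes had a length in GENCODE vM21. The authors also deposited their own DESeq2 comparison of SSC and a list of m6A-tagged changed genes, with fold changes and p-values, and these were not used.

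Counts were tested with edgeR 4.0.16 (quasi-likelihood, TMM scaling, filterByExpr) in R 4.3.3, fitted apart for each comparison, with Benjamini-Hochberg adjustment over all genes of the fit. Standard errors were derived from the F statistic, as the size of the log2 fold change over the root of F. CPM values are TMM-scaled, with a prior count of 2 on the log2 scale. The scripts were tested on simulated counts. Both thresholds on unadjusted p (log2 fold change above 1 for m6A-tagged genes, beyond 0.5 for genotype) follow the methods of the study. With 2 libraries against 2 no permutation test can reach 0.05, so p-values come from the fits across genes, and floors of 3 reads cover counting error only. Alternatives were DESeq2 1.42.0, its size factors, library size alone, no filter, a replicate block, summed osteocalcin counts, adjusted p in place of unadjusted p, and leaving out single libraries. The members and all lists were chosen with earlier results of these data known. All 9 members are named, with at most 2 higher and 2 lower genes per list by size of change among those at an adjusted p under 0.05, and up to 3 genes per member by Pearson's r. The values of 1 gene that this rule names are not reported here.

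IP and input libraries of 1 population with the same replicate number are pairs, because the study divided sorted cells of 1 batch between both. Their deviations correlated at 0.0225 to 0.24 in WT and 0.0444 to 0.0508 in Mettl3cko. Those of WT input libraries of different populations correlated at −0.197 to 0.133. The fits reported used no replicate block unless it is named. Replicate numbers of different populations or genotypes are only numbers. No 2 libraries agreed within sampling noise, with replicates differing by at least 25.9 times the chi-square per degree of freedom that counting alone gives. All libraries carry the same batch label.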

Additional observations from a re-analysis of the deposited data

How the results depend on the processing

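The count of members that differed among WT populations (9) did not change under any alternative, and that in stem and progenitor populations moved between 6 and 7. Leaving out single libraries covered every library of the mRNA and m6A-tagging tests, 8 of 32 libraries for the ratio among populations and the 12 Mettl3cko libraries of 24 for the ratio between genotypes, and an arm left with 1 library was assumed to vary like the others. At an adjusted p, 8 pairs in WT were m6A-tagged, and 0 members were called in SSC, 0 in pBCSP and 0 in BCSP labelled Mettl3cko. Without the filter on low counts 4 members were called in BCSP and 4 over the 3 populations. With the replicate block, 1 member passed for the ratio among populations (Spp1) and 1 over the 3 populations (Bglap, −1.73, adjusted p = 0.0275), Dmp1 was called in SSC (0.88) and Bglap2 in BCSP (−1.76), where same-numbered libraries share only a number, and the genotype difference in the ratio of Bglap, whose IP and input libraries are paired, was −0.0233. Spp1 in BCSP, near 0 in the fit reported, was 0.00486 with DESeq2, 0.0057 with library size alone, 0.00295 without the filter and 0.12 with the block. Over the fits that left out 1 library the number of members called was 0 to 1 for the ratio among populations, 1 to 5 in SSC, 0 to 3 in pBCSP, 0 to 2 over the 3 populations and 0 to 2 for the ratio between genotypes. In the same fits the log2 fold change of Dmp1 in stem and progenitor populations ran from −0.29 to 0.0045 and that of Bglap2 for IP in BCSP from −0.0588 to 3.47. In SSC labelled Mettl3cko it ran from −0.34 to 0.88 for Sp7, −0.0941 to 0.39 for Spp1, −0.23 to 1.89 for Dmp1 and −2.76 to 0.17 for Phex. In BCSP it ran from −0.48 to 0.72 for Spp1, −1.09 to 0.0673 for Ibsp, −0.49 to 0.29 for Alpl and −0.89 to 0.97 for Phex. The difference in the ratio of Bglap between genotypes ran from −1.002 to 0.93. The cause of these changes was not tested, and DESeq2's size factors in edgeR changed no count of calls. Few reads limit Bglap in HEC and Phex in pBCSP.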
